A study of Mus musculus with 6 samples.

Results

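The mitochondrial Slc25 carriers are the genes named Slc25a followed by a number. They were taken as all probe sets whose platform annotation gives a single symbol of that form, which yielded 93 probe sets for 44 genes, out of 45101 probe sets on the array and 18193 genes with a single-symbol probe set. Each gene was represented by its brightest probe set, the one with the highest mean over the 6 arrays. Of the 44 genes, 38 had a group mean of at least 50 and were tested, and 6 did not. The arrays were made from the cortex of constitutive p11 knockout mice (p11 is the product of S100a10) that also carry a bacterial artificial chromosome in which S100a10 regulatory sequence drives a tagged ribosomal protein, line ES691. The fluoxetine mice (FLX, 3 arrays) drank the antidepressant at 0.167 mg per ml together with 1% saccharin, and the vehicle mice (VEH, 3 arrays) drank 1% saccharin alone, in both cases for 15 to 18 days. All animals lacked p11 and carried the transgene on a C57BL/6 background reached from FVB over 3 to 5 generations, so no array with p11 is compared here. No source used here gives the age or sex of the animals or how many were pooled per array. RNA bound to the tagged ribosomes was purified (translating ribosome affinity purification), and 15 ng of it was amplified in a pair of cycles and hybridised to 1-colour Affymetrix mouse arrays.

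Members of the family are built of repeated pairs of membrane-spanning helices and sit mostly in the inner mitochondrial membrane. They exchange nucleotides, phosphate, carboxylates, amino acids and cofactors between matrix and cytosol, and so link oxidative phosphorylation, the redox shuttles and biosynthesis to the rest of the cell. In brain the aspartate/glutamate carrier and the oxoglutarate carrier form the membrane part of the malate-aspartate shuttle, and the glutamate carriers bring glutamate into the matrix. Most family members are made without a cleaved presequence and enter the inner membrane through the TIM22 translocase.

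Array medians lay between 38.6 and 42.0, and 21203 to 21731 probe sets per array were at 50 or above. Replicates 1 and 2 of both groups correlated at r = 0.987 to 0.995 over the tested probe sets on the log2 scale, whereas the replicate 3 arrays correlated at 0.867 to 0.916 with them and at 0.973 with each other. All 8 annotated pyramidal neuron markers were tested, with a summed intensity of 13540 to 26095 in FLX and 13409 to 25156 in VEH arrays. The dimmest of them, Slc17a7, the vesicular glutamate transporter of cortical pyramidal cells, was at 118 to 242 over the 6 arrays. The sums were 19803 to 45631 in FLX and 16586 to 35132 in VEH arrays for the 10 interneuron markers. For the 9 annotated oligodendrocyte markers they were 26724 to 75901 and 25828 to 72176, and all of both lists were tested. All 10 leptomeningeal and all 10 astrocyte markers were tested as well, and the labels state that the transgene marks some cells that are not neurons. S100a10, the deleted gene, was read by 3 probe sets that differed: an x_at set had 2222, 2037 and 349 in FLX and 3111, 2248 and 643 in VEH arrays, while the others stayed below 50 in all 6 arrays, at 34.0 to 49.4 and 4.98 to 8.22. Where these probes lie relative to the deletion is not given in any source used here, and the knockout label was not checked by them. RNA integrity, as the mean log2 difference between 3′ and 5′ control probe sets of Gapdh and Actb, was 2.12 ± 0.07 in FLX and 2.23 ± 0.08 in VEH arrays (SD, n = 3 each; exact two-sided permutation test, p = 0.3, where 0.1 is the smallest possible).

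No Slc25 gene differed between FLX and VEH arrays beyond the replicate error. With limma, 0 of 38 members passed an adjusted p of 0.05, and the smallest adjusted p among them was 0.9998. Over all 22200 probe sets tested, 0% were called by the same rule. At an unadjusted p under 0.05, limma gave 0 of the 38 members, against 0.374% of all probe sets. The log2 difference, FLX minus VEH, had a median of 0.02 over the 38 members, with 20 positive and 18 negative, and a median of 0.04 over all probe sets tested. It ran from -0.34 for Slc25a23 to 0.60 for Slc25a18, a factor of 1.51. Both extremes varied with the array left out, which also leaves 1 replicate number without its counterpart in the other group. Within replicate numbers 1 to 3, the differences were 0.82, 0.63 and 0.34 for Slc25a18 and -0.48, 0.002 and -0.55 for Slc25a23. With 1 array left out, Slc25a18 ran from 0.08 (without FLX replicate 3) to 1.24 (without VEH replicate 3), and Slc25a23 from -0.57 (without VEH replicate 2) to -0.04 (without VEH replicate 3). Differences were under 0.1 in size for 17 members and under 0.5 for 37.

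The precision set by 3 arrays per group and a limma fit with the treatment alone limits what these values exclude. Standard errors ran from 0.18 to 0.87, with a median of 0.29 for the members and 0.31 for all probe sets tested. The 95% confidence interval had a median reach of 0.69 log2 units to either side, and for 27 of the 38 members it lay within 1 log2 unit of 0. For the other 11, a change of 2-fold or more in at least 1 direction lay inside the interval. The fit with the treatment alone counts a shift shared by a replicate number as error. With the replicate number as a block, the SE was 0.20 for Slc25a24, 0.25 for Slc25a35 and 0.17 for Slc25a18. Without the block it was 0.87, 0.77 and 0.69. In this material fewer cells of a type and less RNA per cell cannot be told apart.

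**Figure D1:**
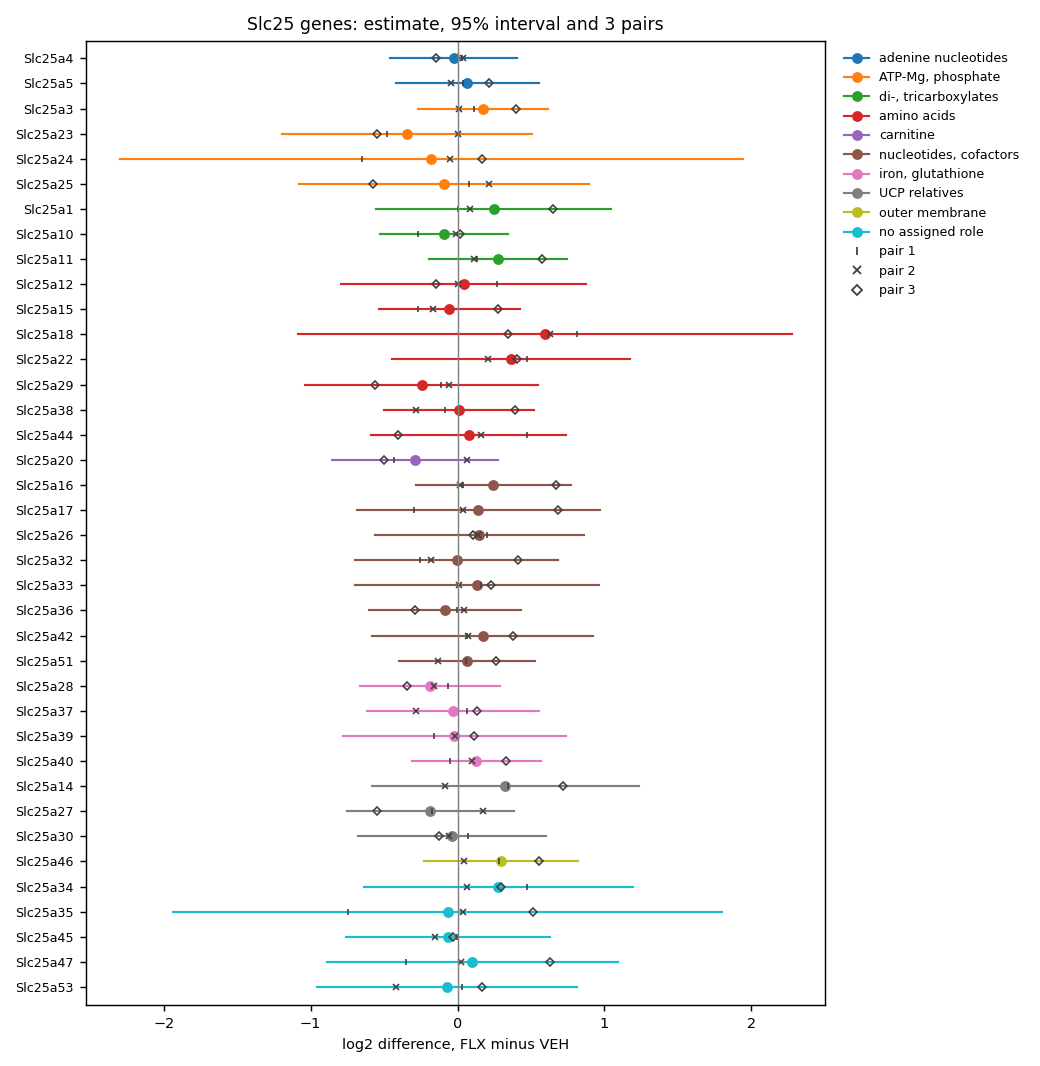
Log2 difference between FLX and VEH (horizontal axis) for the 38 tested Slc25 genes (vertical axis), coloured by the substance carried. Filled circles are limma estimates over 3 arrays per group, and lines are 95% confidence intervals of the fit with the treatment alone. Small grey marks are the differences within replicate numbers 1, 2 and 3. Every interval spans 0, and the widest belong to Slc25a24, Slc25a35 and Slc25a18.

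The adenine nucleotide carriers exchange matrix ATP for cytosolic ADP. Slc25a4, the isoform typical of heart, muscle and brain, had intensities of 42290, 41614 and 42488 in the FLX arrays and 41402, 40535 and 46975 in the VEH arrays, given here and throughout in the order of replicates 1, 2 and 3. Its log2 difference was -0.03 (SE 0.18). Slc25a5, the more widely expressed isoform, had 17960, 17967 and 23116 in FLX and 17521, 18548 and 19942 in VEH arrays, a log2 difference of 0.07 (SE 0.20). The groups overlapped for both genes on these brightest probe sets. A further Slc25a4 probe set read 42106, 42493 and 43155 in FLX and 40753, 41494 and 30484 in VEH arrays, without overlap (log2 difference 0.19, SE 0.21). The VEH replicate 3 array was thus the highest VEH array on the brightest probe set and the lowest on this further one. Of the 4 tested probe sets of Slc25a4, 3 had a positive and 1 a negative difference. Slc25a31, the isoform of the testis, stayed below the minimum, at 8.11 to 28.1 over the 6 arrays.

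The phosphate carrier Slc25a3, which supplies ATP synthase with phosphate, had 26037, 26411 and 29041 in FLX and 24056, 26191 and 22078 in VEH arrays, with means of 27163 ± 1637 and 24109 ± 2057 (SD, n = 3 each). FLX was higher at each replicate number, by log2 differences of 0.11, 0.01 and 0.40, but the groups overlapped. The calcium-regulated ATP-Mg/phosphate carriers adjust the adenine nucleotide content of the matrix. Among them Slc25a23 had 514, 590 and 838 in FLX and 718, 589 and 1224 in VEH arrays, and its log2 difference of -0.34 (SE 0.35) was the lowest of the family. Slc25a25 had 307, 291 and 430 in FLX and 290, 251 and 640 in VEH arrays (log2 difference -0.09, SE 0.41). In both of these genes the replicate 3 array was the highest of each group. Slc25a24 went the other way, and its values are given with the replicates below. Slc25a41 stayed below the minimum, at 10.7 to 24.3.

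Of the carboxylate carriers, Slc25a11, the oxoglutarate/malate exchanger of the malate-aspartate shuttle, had the smallest unadjusted p of the positive members (0.203). It had 1562, 1535 and 1931 in FLX arrays, all above the 1424, 1418 and 1293 of the VEH arrays, with means of 1676 ± 221 and 1378 ± 74.3 (SD, n = 3 each). The log2 difference was 0.28 (SE 0.19, 95% interval -0.20 to 0.75; limma adjusted p = 0.9998). Slc25a1, the citrate carrier that exports citrate for lipid synthesis, had 1255, 1320 and 1002 in FLX and 1253, 1247 and 637 in VEH arrays. Replicates 1 and 2 were close between the groups for Slc25a1, and the difference lay in replicate 3. Slc25a10, the dicarboxylate carrier, had 312, 359 and 366 in FLX and 376, 362 and 362 in VEH arrays, a log2 difference of -0.09 (SE 0.18).

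Of the 38 tested members, only Slc25a11 and Slc25a46 had all FLX arrays above all VEH arrays on the brightest probe set, where 2.55% of all probe sets tested did so. None (0) had all FLX arrays below, against 1.79% of all probe sets. Slc25a46, which lies in the outer mitochondrial membrane and takes part in mitochondrial dynamics and lipid transfer, had 4986, 4435 and 6474 in FLX and 4100, 4296 and 4401 in VEH arrays. Its log2 difference was 0.29 (SE 0.21), and its other tested probe set gave 0.37 (SE 0.25) with overlapping groups.

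The 7 tested amino acid carriers had a median log2 difference of 0.04. The aspartate/glutamate carrier of neurons, Slc25a12, had 7147, 6493 and 10429 in FLX and 5942, 6471 and 11551 in VEH arrays, a log2 difference of 0.04 (SE 0.34). Its other tested probe set, a dimmer one, had 377, 308 and 1131 in FLX and 229, 312 and 782 in VEH arrays (log2 difference 0.41, SE 0.66). The isoform Slc25a13, best known from liver, stayed below the minimum at 16.4 to 39.6. The replicate 3 arrays were the highest of their group in both genes.

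The 2 glutamate carriers both had positive differences at every replicate number. Slc25a22, through which glutamate enters the matrix with a proton, had 3157, 2782 and 5055 in FLX and 2274, 2407 and 3817 in VEH arrays. Its log2 differences were 0.47, 0.21 and 0.41 in replicates 1 to 3 (estimate 0.36, SE 0.33). Slc25a18, the isoform that is abundant in astrocytes, had 561, 618 and 1706 in FLX and 319, 399 and 1347 in VEH arrays. Its log2 differences were 0.82, 0.63 and 0.34 (estimate 0.60, SE 0.69), and the estimate ran from 0.08 to 1.24 with 1 array left out. In both genes replicates 1 and 2 of each group lay well below replicate 3, so the groups overlapped although each FLX array exceeded the VEH array of the same number. With the replicate number as a block, limma gave Slc25a18 an unadjusted p of 0.00916 and an adjusted p of 0.623. It was the 1 member of 38 under 0.05 before adjustment in that fit, which placed 7.95% of all probe sets there and called 0% after adjustment.

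Of 10 listed astrocyte markers, all were tested, 0 were called by limma with or without the block, 7 had a positive and 3 a negative log2 difference between FLX and VEH, and none was at 0. Their summed intensity was 40530 to 51131 in FLX and 39221 to 43188 in VEH arrays. The 10 log2 differences had a median of 0.27, and Gfap, described next, had the largest of them. The negative ones were -0.04 for Gja1, -0.006 for Slc1a3 and -0.004 for S100b. Gfap, the astrocyte intermediate filament, had 370, 372 and 1546 in FLX and 109, 159 and 547 in VEH arrays, higher in FLX at each replicate number (log2 difference 1.5, SE 0.81; limma adjusted p = 0.9998). It was higher in replicate 3 than in replicates 1 and 2 by 2.06 log2 units in both groups, while Gja1, the astrocyte gap junction gene, had shifts of -1.91 in FLX and -2.40 in VEH arrays. In all, 6 of the 10 markers were higher in replicate 3 in FLX and 4 of 10 in VEH arrays. Among markers of other cells, those higher in replicate 3 were 9 of 10 interneuron markers in each group, 7 of 9 oligodendrocyte markers in each group (median shifts 1.65 in FLX and 1.41 in VEH arrays), and 7 of 8 pyramidal markers in FLX and 6 of 8 in VEH arrays. The part of any of these in the values of Slc25a18 was not tested.

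Of the remaining amino acid carriers, Slc25a29, a carrier of basic amino acids, had 503, 502 and 687 in FLX and 543, 523 and 1013 in VEH arrays. FLX was lower at each replicate number, and all 5 of its tested probe sets had negative differences, from -0.40 to -0.09. Slc25a15, the ornithine carrier of the urea cycle, had 905, 882 and 1014 in FLX and 1091, 992 and 839 in VEH arrays, lower in replicates 1 and 2 and higher in replicate 3. Slc25a38, a glycine carrier needed for haem synthesis, had a log2 difference of 0.01, and Slc25a44, a carrier of branched-chain amino acids, 0.08. Slc25a2, a second ornithine carrier, stayed below the minimum at 8.22 to 12.3.

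Slc25a20, which brings acylcarnitines into the matrix for fatty acid oxidation, had the smallest unadjusted p of the negative members (0.258). It had 2523, 2857 and 1932 in FLX and 3408, 2727 and 2737 in VEH arrays, and a log2 difference of -0.29 (SE 0.23, 95% interval -0.86 to 0.28). FLX was lower in replicates 1 and 3 and slightly higher in replicate 2, and its other tested probe set had a difference of 0.09 (SE 0.34).

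The 8 tested nucleotide and cofactor carriers had a median log2 difference of 0.14, with 6 positive. Slc25a16, which is linked to mitochondrial coenzyme A, had 3552, 3138 and 4254 in FLX and 3455, 3107 and 2667 in VEH arrays. The first and second replicates nearly coincided between the groups, and replicate 3 carried a log2 difference of 0.67. Slc25a36, a pyrimidine nucleotide carrier, had 5758, 5342 and 6065 in FLX and 5779, 5192 and 7410 in VEH arrays, a log2 difference of -0.08 (SE 0.21). Its other tested probe sets gave 0.21 (SE 0.38) and 0.46 (SE 0.28), so its direction depends on the probe set. The other pyrimidine nucleotide carrier, Slc25a33, had 0.13. Log2 differences were 0.17 for Slc25a42, a coenzyme A carrier, 0.15 for Slc25a26, which imports S-adenosylmethionine, 0.14 for the peroxisomal member Slc25a17, 0.06 for the NAD carrier Slc25a51 and -0.01 for Slc25a32, a folate and FAD carrier.

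The 4 iron and glutathione carriers had a median log2 difference of -0.03, and the intervals of all 4 lay within 1 log2 unit of 0. Slc25a37, mitoferrin of the red cell lineage, had 460, 422 and 362 in FLX and 440, 514 and 331 in VEH arrays. Slc25a28, the mitoferrin of other tissues, had 728, 614 and 682 in FLX and 760, 685 and 865 in VEH arrays, lower in FLX at each replicate number (log2 difference -0.19, SE 0.20, 95% interval -0.66 to 0.29). Slc25a39, a glutathione carrier, had 11898, 12331 and 8123 in FLX and 13263, 12501 and 7513 in VEH arrays, with the replicate 3 array the lowest of each group. All 4 of its tested probe sets had differences between -0.12 and -0.02. Its relative Slc25a40 had 0.13.

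The relatives of the uncoupling proteins are found in brain mitochondria, among other tissues. Slc25a14 had 2838, 2610 and 1926 in FLX and 2236, 2776 and 1171 in VEH arrays, higher in FLX in replicates 1 and 3 and lower in replicate 2 (log2 difference 0.32, SE 0.37). Slc25a27 lay near the minimum of 50, with 66.4, 73.2 and 47.4 in FLX and 75.1, 65.0 and 69.3 in VEH arrays. Its brightest probe set had a log2 difference of -0.18 (SE 0.23) and another tested one 0.50 (SE 0.32), so its direction depends on the probe set. Slc25a30 had -0.04.

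Among the members with no role assigned here, log2 differences were 0.28 for Slc25a34, 0.10 for Slc25a47, -0.06 for Slc25a45, and -0.07 for both Slc25a35 and Slc25a53. Slc25a48 and Slc25a54 stayed below the minimum.

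**Figure D2:**
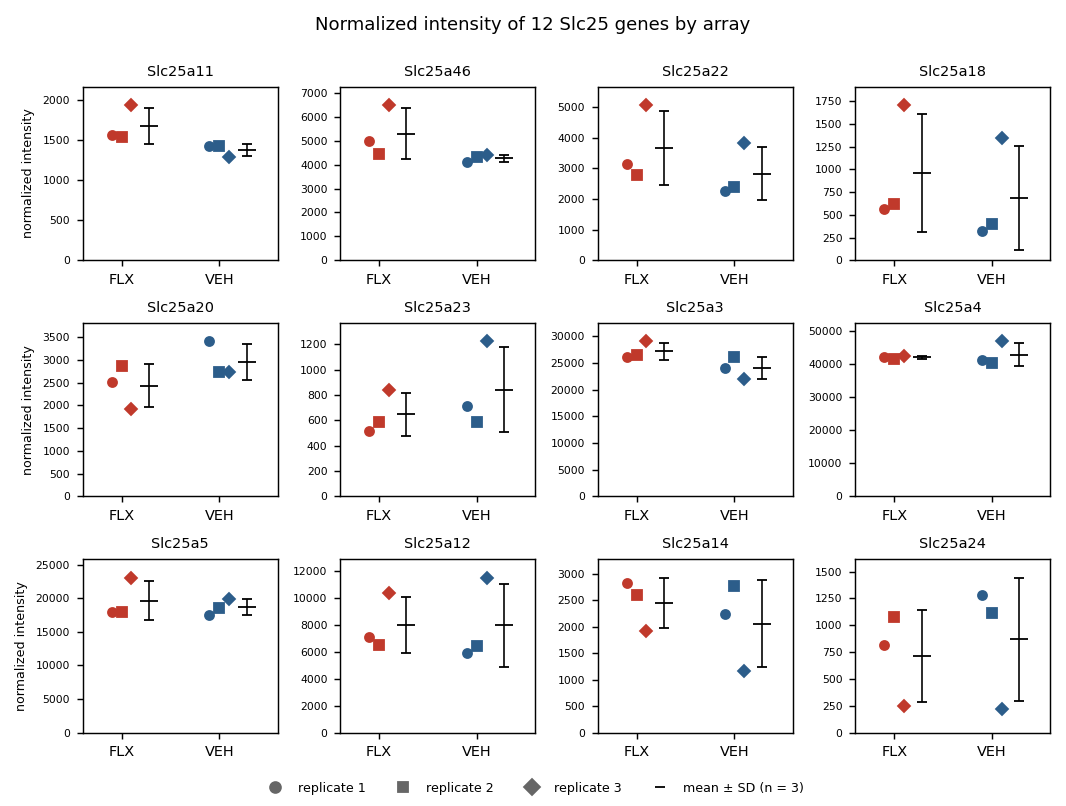
Normalized intensity (vertical axes, linear, starting at 0) of 12 Slc25 genes in FLX and VEH arrays. Circles, squares and diamonds are replicates 1, 2 and 3, and the bar beside them is the mean ± SD (n = 3). Slc25a11 and Slc25a46 show no overlap between the groups, while in Slc25a18, Slc25a12 and Slc25a24 the replicate 3 arrays lie apart from the others in both groups.

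By replicate number, 11 of the 38 tested members were higher in FLX in all 3 pairs and 3 were lower in all 3. Over all probe sets tested the shares were 19.6% and 13.6%. The remaining 24 members changed sign between pairs. Median log2 differences of the members were 0.03, 0.01 and 0.22 in pairs 1, 2 and 3, and 0.01, -0.01 and 0.14 over all probe sets tested. Pair 3 was the widest of the 3 for 25 members, and the median size of the difference was 0.16, 0.07 and 0.36 in pairs 1 to 3.

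Relative to the mean of replicates 1 and 2, replicate 3 was higher in both groups for 16 of the 38 members, lower in both for 14 and of unlike direction for 8. Over all probe sets tested, 42.8% were higher in both groups and 38.8% lower in both. The shift reached 1 log2 unit or more in both groups for 3 members, which are Slc25a18, Slc25a24 and Slc25a35, against 20.3% of all probe sets tested. Slc25a24, a calcium-regulated ATP-Mg/phosphate carrier, and Slc25a35 are described because of this shift, chosen after their values were seen.

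Slc25a24 had 817, 1076 and 243 in FLX and 1283, 1116 and 217 in VEH arrays, a shift in replicate 3 of -1.95 log2 units in FLX and -2.47 in VEH arrays. Slc25a35 had 226, 311 and 97.4 in FLX and 380, 303 and 68.3 in VEH arrays, with shifts of -1.44 and -2.31. Slc25a18 had shifts of 1.53 in FLX and 1.92 in VEH arrays. Several marker lists were also mostly lower in replicate 3, as were 44.6% of all probe sets tested in FLX and 51.4% in VEH arrays. All 10 leptomeningeal and fibroblast markers were lower in both groups (median shifts -3.60 in FLX and -3.34 in VEH arrays). Of 5 tested markers each, 4 endothelial and 3 pericyte and smooth muscle markers were lower in both groups, and of 9 microglial markers 7 were lower in FLX and 8 in VEH arrays. The summed intensity of the leptomeningeal markers was 28486 to 99467 in FLX and 44434 to 100279 in VEH arrays, and none was at 0. The lowest sums were those of replicate 3, and Ptgds alone made up 25332 of it in FLX and 38518 in VEH arrays. Its shifts were -0.80 and -0.18, so these sums mostly follow 1 marker that fell less than the median of the list. The part of any of these cell types in the values of Slc25a24 and Slc25a35 was not tested.

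**Figure D3:**
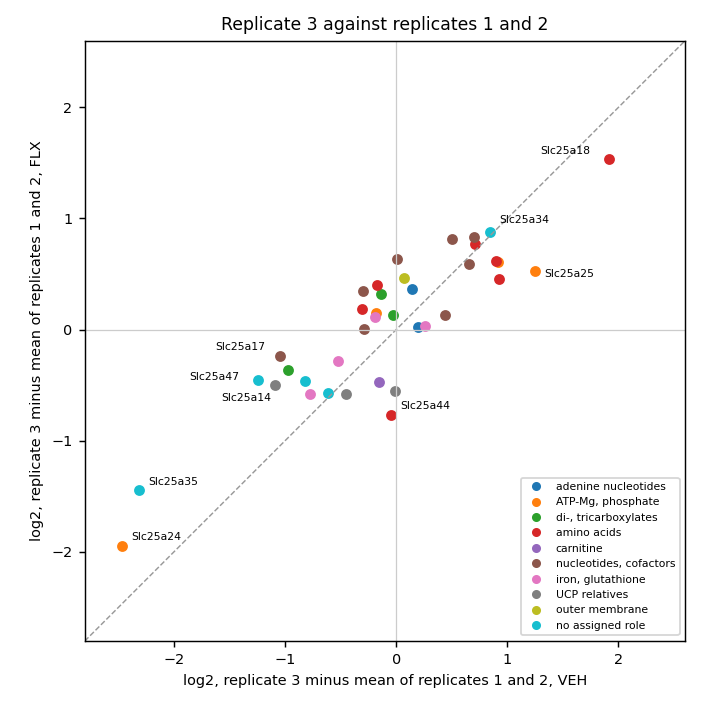
Log2 difference between replicate 3 and the mean of replicates 1 and 2 in FLX arrays (vertical axis) and in VEH arrays (horizontal axis) for the 38 tested Slc25 genes, coloured by the substance carried, with the line of equality dashed. Slc25a24 and Slc25a35 lie far down and Slc25a18 far up in both groups.

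**Figure D4:**
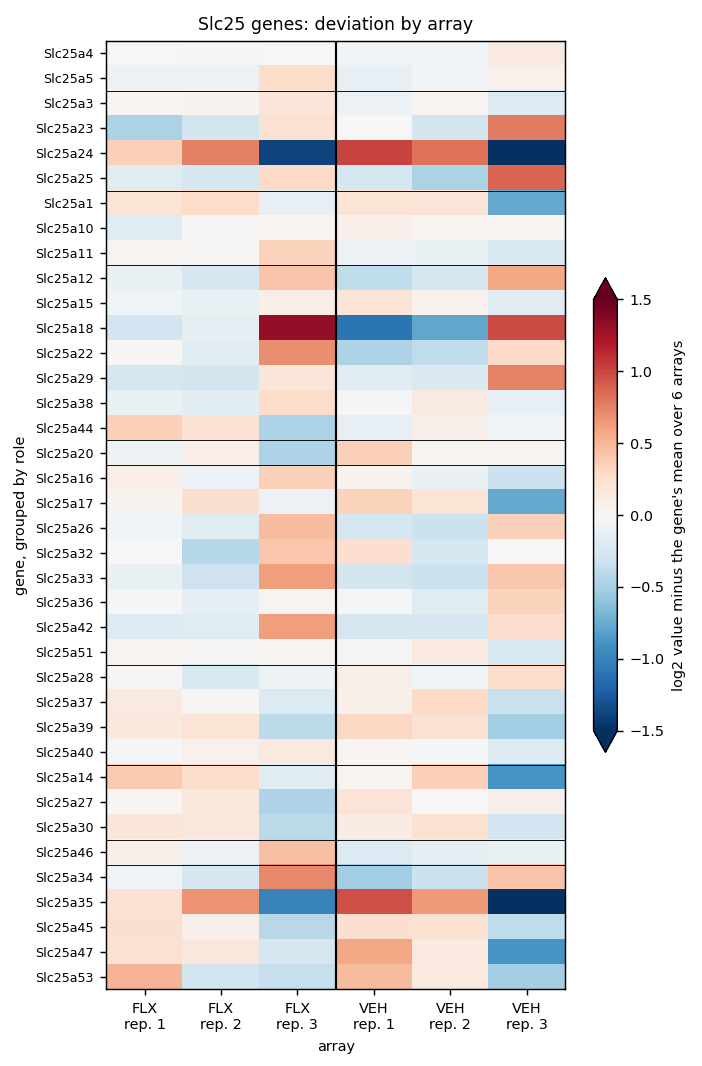
Log2 intensity of each tested Slc25 gene (rows, grouped by role) minus its mean over the 6 arrays, for FLX replicates 1 to 3 and VEH replicates 1 to 3 (columns). Red is above and blue below the gene's mean, with the scale ending at 1.5. The strongest colours are those of Slc25a24, Slc25a35 and Slc25a18, in the replicate 3 columns of both groups.

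Several probe sets were tested for 15 of the members. Their differences had both signs for 8 of these genes. The brightest probe set had the lowest difference of the gene's tested probe sets in 12 of the 15 and the highest in 0. Over the 5110 genes with at least 2 tested probe sets, the brightest was the lowest in 42.5% and the highest in 40.8%. Taking the mean of a gene's tested probe sets instead gave a median log2 difference of 0.12 over the 38 members, with 25 positive, and 0.05 over all 12214 genes, and again 0 members were called by limma. Among single probe sets, the dimmest tested one of Slc25a44 stood out, chosen after its values were seen. It had 68.6, 92.6 and 73.8 in FLX and 56.1, 48.0 and 44.4 in VEH arrays, without overlap, and a log2 difference of 0.66 (SE 0.21; limma unadjusted p = 0.0217, adjusted p = 0.9998). Only the FLX mean of this probe set (78.3) met the intensity minimum for testing, and its VEH mean (49.5) did not. Its entry into the test thus depended on the group that was higher, which the limma p-value does not allow for. The other probe sets of Slc25a44 had 0.08 and 0.15.

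**Figure D5:**
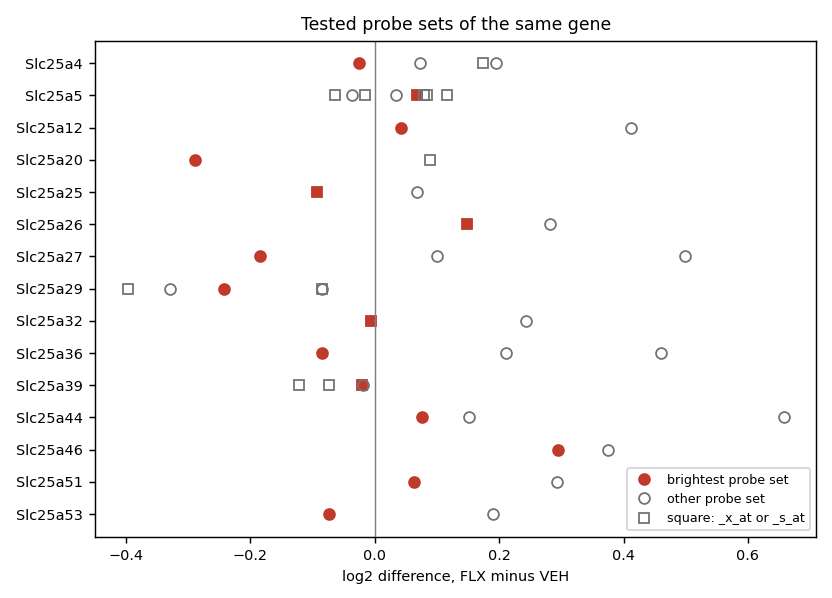
Log2 difference between FLX and VEH (horizontal axis) for every tested probe set of the 15 Slc25 genes with more than 1 (vertical axis). Filled red marks are the brightest probe set and open grey marks the others, and squares are sets of the x_at or s_at type. The red mark lies furthest left in 12 genes.

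Genes that work with the carriers were read from the same fit, and 0 of 30 tested were called. Of these, 22 had a positive and 8 a negative log2 difference, with a median of 0.11, where 57.2% of all probe sets tested were positive and their median was 0.04. Among the shuttle enzymes, Got1, the cytosolic aspartate aminotransferase of the malate-aspartate shuttle, had 9202, 8159 and 13309 in FLX and 6298, 7053 and 7910 in VEH arrays, without overlap. Its log2 difference was 0.50 (SE 0.25; limma unadjusted p = 0.0931, adjusted p = 0.9998). Got2, the mitochondrial aminotransferase, had 0.25 (SE 0.25), and 5 of the 6 shuttle enzymes were positive. On the TIM22 import route, 8 of 12 genes were positive, and Tomm22 (-0.45, SE 0.29) and Timm13 (-0.35, SE 0.26) had the smallest unadjusted p. Among the other membrane channels and carriers 7 of 10 were positive, with Vdac2, a porin of the outer membrane, at 0.25 (SE 0.20) and Letm1 at 0.17 (SE 0.20). The family members with other names gave 0.17 for Mtch2 and 0.04 for Mtch1. Of the 30 genes, 3 had all FLX arrays above all VEH arrays (Got1, Vdac2 and Mtch2), against 2.55% of all probe sets tested. All FLX arrays lay below in 0 of them, against 1.79%.

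Promoter windows, from 250 bases before to 50 after a start site, were taken from RefSeq on build GRCm38.p6 and were present for 34 of the 44 genes. The 30 tested genes among them had 39 windows. A GC box, GGGCGG on either strand, occurred in 35 of these (89.7%), against 61.7% of 12751 windows of tested genes and 35.7% of all 32851. CCAAT on either strand occurred in 51.3% of the Slc25 windows, against 37% of those of tested genes and 37.4% of all. TATAAA on either strand occurred in 2.56%, against 7.3% and 13.6%. AAGGTCA, a motif known for the oestrogen-related receptors, also occurred in 2.56%, against 3.02% and 4.72%. CGCATGC, the core of the NRF1 site, occurred in 0, against 6.05% and 3.58%. None of these motifs contains another, and a match is a description of the window.

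The 250 bases before the start are shown for Slc25a22, a member higher in FLX in all 3 pairs, and Slc25a20, the negative member with the smallest unadjusted p. For each gene, the window used is that whose start site is the outer end of the gene. Slc25a22 had 3 windows, of which 1 is shown, and Slc25a20 had 1. Capitals mark the GC box on either strand, which occurred 1 time before Slc25a22 and 3 times before Slc25a20, and the other 4 motifs occurred in neither. The first lies at chr7:141437875-141438124 on the minus strand and the second at chr9:108661886-108662135 on the plus strand.
Slc25a22: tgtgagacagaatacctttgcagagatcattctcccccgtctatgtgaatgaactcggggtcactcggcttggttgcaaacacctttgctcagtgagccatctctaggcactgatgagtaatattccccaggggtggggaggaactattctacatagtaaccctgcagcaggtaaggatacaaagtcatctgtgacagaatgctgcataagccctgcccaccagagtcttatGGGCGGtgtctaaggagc
Slc25a20: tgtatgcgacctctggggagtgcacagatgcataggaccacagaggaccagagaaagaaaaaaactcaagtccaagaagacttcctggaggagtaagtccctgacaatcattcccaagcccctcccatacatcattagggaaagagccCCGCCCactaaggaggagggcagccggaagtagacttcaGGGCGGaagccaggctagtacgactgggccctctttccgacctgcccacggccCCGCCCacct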

How the data were processed

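For each array the authors deposited 1 column of probe set intensity, with GCRMA named as the normalization in the submitters' processing notes (version: not given in the sources used here). The values are linear, as judged from their range, 1.60 to 76587. Probe sets were named from the platform annotation. Of 45101 probe sets, 64 controls were left out, and those with at least 1 group mean of 50 or more were tested (22200), since the submitters advise a minimum of 50. The log2 intensities, without a pseudocount, were fitted with limma 3.58.1 (R 4.3.3) in a model with the treatment alone. Tests of FLX minus VEH were two-sided, and p-values were adjusted after Benjamini-Hochberg across every tested probe set. The script was tested on simulated data. Gene identifiers matched a newer gene table for 44 of 44 members and changed 0 symbols. Figures were drawn with matplotlib 3.10.9.

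FLX and VEH arrays share replicate numbers, whose meaning the labels do not give. Deviations from the group means correlated over tested probe sets at r = 0.70, 0.84 and 0.87 for equal numbers, above the limit of 0.1, so the numbers were treated as pairs in an alternative fit. FLX replicate 2 with VEH replicate 1 reached 0.76, so pairs 1 and 2 are not separated by this check. The p-values measure the spread between these arrays, and the number of arrays limits their precision. Alternatives were the replicate block, other filters, a pseudocount of 50, centring, trend and robust moderation, other probe set choices, and arrays left out. Per-array values are given for the 8 members with the smallest unadjusted p in each direction and for a set of well-known members, and for the 2 genes of each companion list with the smallest unadjusted p the difference is given. The members and lists were chosen with earlier results of these data known.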

Additional observations from a re-analysis of the deposited data

How the results depend on the processing

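The count of called probe sets and of called Slc25 members was 0 under every alternative, including the replicate block, where 0 of 22200 probe sets and 0 of 38 members had an adjusted p under 0.05. Unadjusted, limma gave 83 probe sets under 0.05 and 1764 with the block. The median log2 difference of the members ran from -0.02 to 0.08 with 1 array left out, the lowest without the VEH replicate 3 array, and was 0.12 with the mean of a gene's probe sets. Centring moved the median of all probe sets tested by less than 0.1. The difference in RNA integrity kept its sign under the alternatives run for it, at -0.15 to -0.07 with 1 array left out.

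Of the 38 tested members, 11 kept the sign of their difference under all alternatives run, and with 1 array left out they ran from 0.11 to 0.24 for Slc25a3, -0.13 to -0.018 for Slc25a10, 0.17 to 0.33 for Slc25a11, 0.13 to 0.35 for Slc25a16, 0.085 to 1.24 for Slc25a18, -0.41 to -0.13 for Slc25a20, 0.11 to 0.60 for Slc25a22, -0.57 to -0.039 for Slc25a23, -0.27 to -0.10 for Slc25a28, 0.065 to 0.18 for Slc25a40 and 0.14 to 0.41 for Slc25a46. The block, the filters and the moderation do not alter the estimate of a probe set, so they could not change a sign. Of these 11, only Slc25a20 and Slc25a46 had more than 1 tested probe set. Other probe set choices could not act on the rest. The other 27 members changed sign with at least 1 single array left out, and no member was called in either direction. Leaving 1 array out unbalances the replicate numbers, so a shift shared by a replicate number enters the difference. Among these 27, Slc25a1, Slc25a26, Slc25a33, Slc25a34 and Slc25a42 were higher in FLX in all 3 pairs, and Slc25a29 and Slc25a45 lower in all 3. The part of such shifts in the sign changes was not tested. With 1 array left out the log2 differences ran from -0.078 to 0.41 for Slc25a1, -0.066 to 0.040 for Slc25a4, -0.054 to 0.13 for Slc25a5, -0.16 to 0.34 for Slc25a12, -0.039 to 0.58 for Slc25a14, -0.16 to 0.031 for Slc25a15, -0.21 to 0.35 for Slc25a17, -1.0 to 0.47 for Slc25a24 and -0.35 to 0.32 for Slc25a25. They ran from -0.047 to 0.37 for Slc25a26, -0.31 to 0.0011 for Slc25a27, -0.41 to 0.067 for Slc25a29, -0.19 to 0.16 for Slc25a30, -0.22 to 0.20 for Slc25a32, -0.15 to 0.37 for Slc25a33, -0.014 to 0.56 for Slc25a34, -0.84 to 0.41 for Slc25a35 and -0.20 to 0.061 for Slc25a36, and from -0.20 to 0.11 for Slc25a37, -0.13 to 0.087 for Slc25a38, -0.28 to 0.17 for Slc25a39, -0.10 to 0.34 for Slc25a42, -0.082 to 0.33 for Slc25a44, -0.27 to 0.13 for Slc25a45, -0.31 to 0.42 for Slc25a47, -0.034 to 0.15 for Slc25a51 and -0.35 to 0.15 for Slc25a53. With arrays centred on their median the sign also changed, to -0.015 for Slc25a38. Without both replicate 3 arrays the sign also changed, to 0.034 for Slc25a4, -0.0051 for Slc25a5, -0.13 for Slc25a17, 0.15 for Slc25a25, 0.0063 for Slc25a30, 0.018 for Slc25a36, -0.18 for Slc25a38, -0.16 for Slc25a47 and -0.036 for Slc25a51. With the mean of a gene's tested probe sets the sign also changed, to 0.10 for Slc25a4, 0.14 for Slc25a27, 0.12 for Slc25a32, 0.20 for Slc25a36 and 0.059 for Slc25a53. Without x_at and s_at probe sets the sign also changed, to 0.068 for Slc25a25 and 0.24 for Slc25a32.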

Other observations

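Paralogues of the family, each by its brightest probe set, were also set against each other. The measure was the difference of their log2 differences, which cancels the brightness of each probe set. For Slc25a4 minus Slc25a5 it was -0.09, with -0.01, 0.08 and -0.36 in pairs 1 to 3. For the 2 glutamate carriers, Slc25a18 minus Slc25a22, it was 0.23, with 0.34, 0.42 and -0.06. For the mitoferrins, Slc25a28 minus Slc25a37, it was -0.16, with -0.12, 0.13 and -0.47. For the uncoupling protein relatives it was 0.51 for Slc25a14 minus Slc25a27, with 0.52, -0.26 and 1.27, and 0.36 for Slc25a14 minus Slc25a30, with 0.27, -0.03 and 0.84. For the pyrimidine nucleotide carriers, Slc25a33 minus Slc25a36, it was 0.22, with 0.17, -0.03 and 0.51. Among the ATP-Mg/phosphate carriers it was -0.16 for Slc25a23 minus Slc25a24, with 0.17, 0.05 and -0.72, and -0.25 for Slc25a23 minus Slc25a25, with -0.56, -0.21 and 0.03. Slc25a39 minus Slc25a40, the glutathione carriers, gave -0.15, with -0.11, -0.12 and -0.22, and was the 1 of the 9 comparisons made with the same sign in all 3 pairs. The sign would turn for Slc25a4 minus Slc25a5, Slc25a14 minus Slc25a27 and Slc25a33 minus Slc25a36 with other tested probe sets. Those had log2 differences of 0.19 for Slc25a4, 0.50 for Slc25a27, and 0.21 and 0.46 for Slc25a36. The Slc25a27 value of the largest comparison also came from a probe set near the minimum of 50. None of the 9 comparisons was tested.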
